A study of Mus musculus with 24 samples.

Results

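Gfap, Vim, Nes, Fabp7, Glul and Apoe, a set of genes linked to satellite glia and to reactive glia, were followed in mouse dorsal root ganglia before and after nerve injury. They were chosen by name, and all 6 were found among the 38215 genes of the deposited expression table. The ganglia came from mice of 3 strains, labelled C57, CAST and DBA, and were either naive or collected on day 5 after a sciatic nerve crush. The 6 combinations of strain and treatment held 4 libraries each, which the series design calls biological quadruplicates, so there were 24 in all. The series title is about regrowth of axons in the damaged brain and spinal cord of CAST/Ei mice. The labels call the uninjured ganglia naive whereas the treatment protocol speaks of sham injury, and the labels give neither age nor sex. No transgene, deletion or drug is named for any group.

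A dorsal root ganglion holds the cell bodies of the sensory neurons that send axons into the sciatic nerve, and each cell body is wrapped by satellite glial cells. These cells buffer potassium, clear glutamate and release lipids around the neuron. After nerve injury they are known to become reactive, and the intermediate filament protein GFAP is the usual marker of that state, as it is in astrocytes of the central nervous system. Vim and Nes encode the intermediate filament proteins vimentin and nestin, which build the glial cytoskeleton together with GFAP. Vim is also made by fibroblasts, endothelial cells, macrophages and Schwann cells, and Nes by endothelial cells and progenitors. Fabp7 encodes the brain-type fatty acid binding protein of glia, Glul encodes glutamine synthetase, which turns glutamate into glutamine, and Apoe encodes apolipoprotein E, a lipid carrier made by glia and macrophages.

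The ganglia carried satellite glia transcripts in every library. The 15 other satellite glia genes summed to between 86.9 and 116 FPKM (fragments per kilobase of gene length, scaled to the library total), and none of them was at 0. Astrocyte and oligodendrocyte genes of the central nervous system summed to at most 0.799 FPKM over 8 genes, of which 6 or 7 had a group mean below 0.05 FPKM. Library totals recovered from the values ran from 51.4 to 145.4 M reads, with a median of 107 M (M, mega). Some libraries stood apart. C57 crush replicate 3 had the lowest total and the lowest correlation with its group (0.977), C57 naive replicate 1 had the lowest correlation among naive C57 libraries (0.979), and DBA naive replicate 3 held 29.1 FPKM of the muscle gene Acta1. Without those 3 libraries the same number of members was called in each crush contrast, 3 in C57, 4 in CAST and 4 in DBA. Bulk RNA was measured, so fewer cells of a type and less RNA per cell cannot be told apart.

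In mm10 coordinates, Gfap (ENSMUSG00000020932) lies on chromosome 11 from 102887336 to 102900912 on the minus strand and Apoe (ENSMUSG00000002985) on chromosome 7 from 19696109 to 19699188 on the minus strand. Vim (ENSMUSG00000026728) lies on chromosome 2 from 13573927 to 13582826, Nes (ENSMUSG00000004891) on chromosome 3 from 87971078 to 87980451, Fabp7 (ENSMUSG00000019874) on chromosome 10 from 57784881 to 57788450 and Glul (ENSMUSG00000026473) on chromosome 1 from 153899944 to 153909723, each on the plus strand. All are annotated as protein-coding. The promoters of Gfap and Fabp7 are shown because Gfap had the highest ratio after crush in every strain and Fabp7 was the member that fell in CAST. Each window runs from 250 bases before to 50 bases after the transcript start that RefSeq gives on GRCm38.p6, 5′ to 3′ on the strand of the gene. For Gfap that start, at 102897200, lies 3712 bases inside the GENCODE span given above, downstream of its 5′ end, and for Fabp7 it lies 42 bases inside. The Gfap window is chr11:102897151-102897450 on the minus strand and the Fabp7 window is chr10:57784673-57784972 on the plus strand. Capitals mark a match to the STAT motif TTCNNNGAA.

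Gfap: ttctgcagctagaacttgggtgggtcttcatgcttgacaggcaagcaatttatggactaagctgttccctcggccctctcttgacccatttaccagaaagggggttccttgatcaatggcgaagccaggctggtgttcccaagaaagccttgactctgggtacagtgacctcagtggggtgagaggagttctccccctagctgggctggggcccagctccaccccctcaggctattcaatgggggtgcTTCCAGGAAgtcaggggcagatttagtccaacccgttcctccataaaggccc

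Fabp7: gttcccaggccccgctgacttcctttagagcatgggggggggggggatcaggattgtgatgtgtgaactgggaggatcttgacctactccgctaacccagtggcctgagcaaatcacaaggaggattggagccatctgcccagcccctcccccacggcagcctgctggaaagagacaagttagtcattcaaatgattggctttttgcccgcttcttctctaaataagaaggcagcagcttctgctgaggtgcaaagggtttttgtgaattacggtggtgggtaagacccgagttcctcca

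RefSeq gave 8 such windows for the 6 members. The STAT motif, which reads the same on both strands, was found in the Gfap window alone, as TTCCAGGAA beginning 2 bases before the RefSeq start, and 8.30% of all 32851 promoter windows of this length held it. The AP-1 motif TGANTCA, also its own reverse complement, was in 0 of the 8 windows and in 7.81% of all windows. The SOX motif ACAAAG was found on its opposite strand, as CTTTGT, in an Apoe window and in 18.7% of all windows on either strand. None of the 3 motifs overlapped another. These are letters of the reference genome, and the promoters of CAST and DBA were not analysed here.

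Crush raised the 3 intermediate filament genes together in CAST and DBA, whereas in C57 Gfap and Vim rose and Nes did not pass the test. Fabp7 fell in CAST, Glul rose in C57 and by a small amount in DBA, and Apoe passed the test in no strain. In C57, 3 of the 6 members were higher and 0 lower, where 39.4% of all 27086 tested genes were called in either direction. In CAST 3 were higher and 1 lower, against 47.2% of all genes called, and in DBA 4 were higher and 0 lower, against 50.5%. All 6 members passed the filter on low values. So large a share of all genes was called after crush that the number of members called carries little by itself, and the sizes are given gene by gene.

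**Figure D1:**
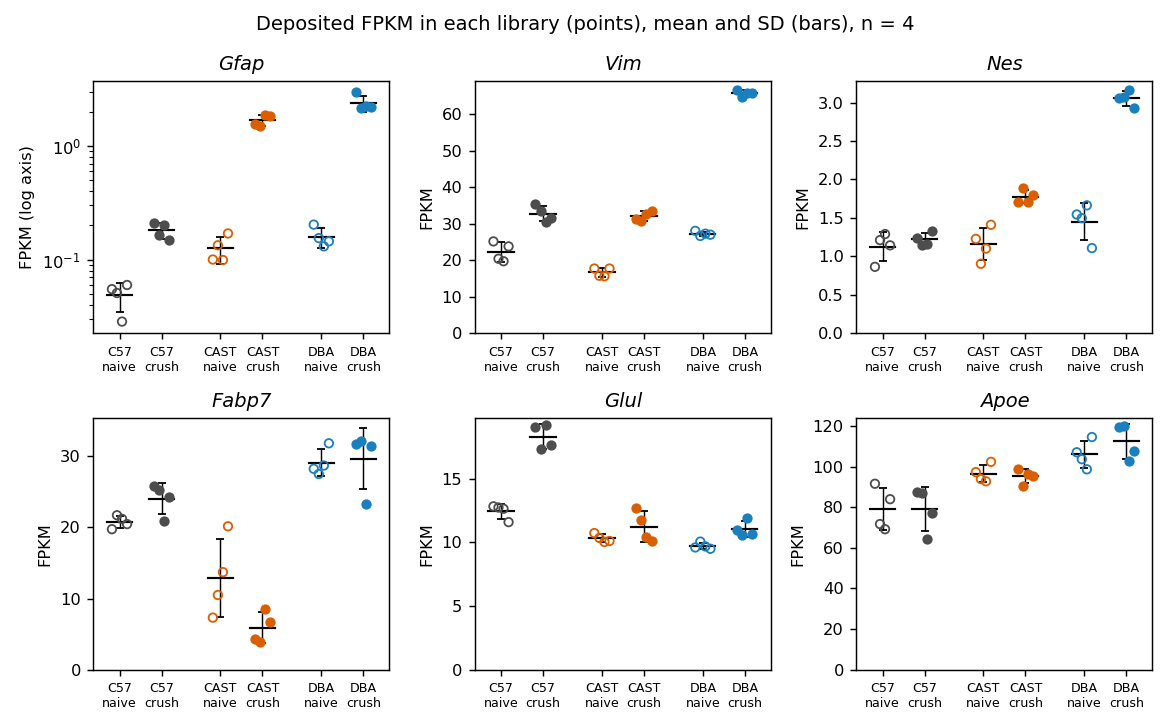
Deposited FPKM of each member in each library (points, open for naive and filled for crush), with the mean and SD of the 4 libraries of a group; the Gfap axis is logarithmic and the others start at 0. Crush libraries lie above naive ones for Gfap and Vim in all 3 strains, Fabp7 is low and scattered in CAST, and Apoe overlaps between treatments.

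Gfap had the lowest level of the members in naive ganglia, per kilobase of gene and of exon, and had the highest ratio of crush to naive in every strain. In naive C57 ganglia its 4 libraries had 0.0551, 0.0509, 0.0286 and 0.0599 FPKM, and after crush 0.212, 0.164, 0.202 and 0.148 FPKM. In CAST the naive libraries had 0.1004, 0.134, 0.0993 and 0.170 FPKM and the crush libraries 1.57, 1.499, 1.87 and 1.83 FPKM. In DBA the naive libraries had 0.203, 0.155, 0.131 and 0.145 FPKM and the crush libraries 2.96, 2.17, 2.23 and 2.20 FPKM. Naive and crush libraries did not overlap in any strain, and injured C57 ganglia stayed within the range that naive CAST and DBA ganglia spanned or just above it. The rise of the mean FPKM was 3.73-fold for C57, 13.4-fold for CAST and 15.1-fold for DBA. On the log2(FPKM + 0.1) scale, which shrinks the change of a gene this low, the difference was 0.92 in C57 (SE 0.12, adjusted p = 2.82e-06), 2.99 in CAST (SE 0.12, adjusted p = 4.90e-14) and 3.26 in DBA (SE 0.12, adjusted p = 1.18e-14).

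The Gfap response itself differed between strains. The log2 difference was larger in CAST than in C57 by 2.07 (SE 0.17, adjusted p = 3.76e-08) and larger in DBA than in C57 by 2.34 (SE 0.17, adjusted p = 1.70e-08). The added 0.1 shrank the C57 rise most, from 3.73-fold to 1.89-fold, against 13.4 to 7.97 in CAST and 15.1 to 9.6 in DBA. Both differences from C57 are therefore larger on this scale than the ratios of mean FPKM give. The CAST response was 0.27 below that of DBA, with a 95% interval from −0.62 to 0.08, and this did not pass the test (adjusted p = 0.360); on log2(FPKM + 1) it did, at −0.29 (adjusted p = 0.0147). Gfap rested on an estimated 37.9 to 87.6 reads per library in naive C57 ganglia and 2376 to 3973 in injured CAST and DBA ganglia. These estimates are approximate, because the Gfap values fell on whole reads with the annotated span in 0 of 24 libraries. The values of Vim, Nes, Fabp7 and Glul did so in 1 library each and those of Apoe in 2, so their read estimates are approximate too.

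Gfap overlaps the long noncoding gene Gm26668 on the opposite strand, and the sources used here do not say whether strand was used in counting. Gm26668 had a mean of 0.893 ± 0.036 FPKM in naive and 0.878 ± 0.013 in injured C57 ganglia (SD, n = 4). In CAST it had 0.942 ± 0.028 FPKM when naive and 1.18 ± 0.019 after crush, and in DBA 0.918 ± 0.022 and 1.11 ± 0.047. Its FPKM was thus higher after crush in the strains with the larger Gfap response, and its span is far longer than that of Gfap. Which reads the 2 genes share was not tested.

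Vim rose in every strain, and its levels were the least scattered of the 6 members in DBA. Its FPKM in C57 was 25.1, 20.4, 19.7 and 23.7 in naive and 35.3, 33.6, 30.6 and 31.4 in crush libraries. In CAST it was 17.7, 15.7, 15.6 and 17.7 in naive and 31.4, 30.7, 32.7 and 33.5 in crush libraries. In DBA it was 28.0, 26.6, 27.2 and 27.0 in naive and 66.5, 64.7, 65.9 and 65.8 in crush libraries. The treatments did not overlap in any strain. Injured DBA ganglia were far above all other groups, while injured CAST and C57 ganglia overlapped although naive CAST ganglia started lower. The rise of the mean was 1.47-fold for C57, 1.93-fold for CAST and 2.42-fold for DBA, with log2 differences of 0.56 (SE 0.07, adjusted p = 7.10e-07), 0.94 (SE 0.07, adjusted p = 2.45e-10) and 1.27 (SE 0.07, adjusted p = 2.18e-12).

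Every pair of strains differed in the Vim response. The response was larger in CAST than in C57 by 0.38 (SE 0.09, adjusted p = 0.00918), smaller in CAST than in DBA by 0.33 (difference −0.33, SE 0.09, adjusted p = 0.0209) and larger in DBA than in C57 by 0.71 (SE 0.09, adjusted p = 3.88e-05). The order of the Vim response was therefore DBA, then CAST, then C57.

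Nes was measured at 0.862, 1.21, 1.29 and 1.14 FPKM in naive and 1.24, 1.15, 1.16 and 1.33 FPKM in injured C57 ganglia. The CAST libraries had 1.23, 0.902, 1.10 and 1.41 FPKM when naive and 1.71, 1.89, 1.71 and 1.80 FPKM after crush. The DBA libraries had 1.54, 1.496, 1.66 and 1.11 FPKM when naive and 3.06, 3.07, 3.17 and 2.93 FPKM after crush. Naive and crush libraries overlapped in C57 and were apart in CAST and DBA, where the crush libraries also varied little among themselves. Nes rose 1.53-fold in CAST (log2 difference 0.59, SE 0.12, adjusted p = 4.32e-04) and 2.11-fold in DBA (1.04, SE 0.12, adjusted p = 4.32e-07). In C57 the ratio was 1.08 and the log2 difference 0.12, with a 95% interval from −0.14 to 0.37 (adjusted p = 0.492).

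The Nes response was larger in DBA than in C57 by 0.92 (SE 0.17, adjusted p = 0.00158). CAST lay between, 0.47 above C57 (SE 0.17, adjusted p = 0.0866) and 0.45 below DBA (difference −0.45, SE 0.17, adjusted p = 0.0963), and neither of these differences passed the test. Both passed without the 3 libraries that stood apart, at 0.56 (adjusted p = 0.0291) and −0.52 (adjusted p = 0.0333). The difference from C57 also passed without C57 naive replicate 1 alone (0.59, adjusted p = 0.0186) or CAST naive replicate 4 alone (0.57, adjusted p = 0.0354), and that from DBA without CAST naive replicate 2 (−0.55, adjusted p = 0.0288).

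**Figure D2:**
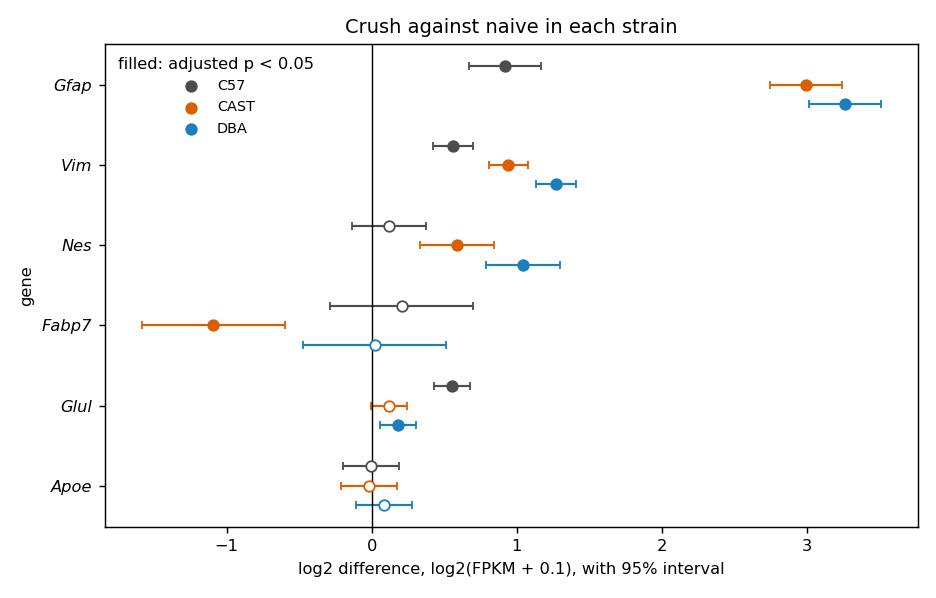
Log2 difference of crush against naive ganglia for each member and strain, on log2(FPKM + 0.1), with its 95% interval; filled points passed the test at an adjusted p under 0.05. The filament genes Gfap, Vim and Nes are ordered C57, CAST, DBA from left to right, Fabp7 lies at −1.09 in CAST, and the intervals of Apoe include 0 in all strains.

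Fabp7, which marks satellite glia in the naive ganglion, was lower in CAST after crush and passed the test in neither of the other strains. In CAST the naive libraries had 7.32, 10.5, 13.7 and 20.1 FPKM and the crush libraries 4.34, 3.96, 8.58 and 6.70 FPKM. In C57 the naive libraries had 19.7, 21.7, 21.2 and 20.5 FPKM and the crush libraries 25.8, 25.2, 20.9 and 24.2 FPKM. In DBA the naive libraries had 28.2, 27.5, 28.7 and 31.8 FPKM and the crush libraries 31.7, 32.2, 23.3 and 31.4 FPKM. The CAST groups overlapped, since the lowest naive library (7.32) lay below the highest crush library (8.58), and the highest naive library was 2.75 times the lowest. No such scatter was seen in naive C57 and DBA ganglia, where that ratio was 1.10 and 1.16.

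The mean of Fabp7 in CAST was 12.9 ± 5.48 FPKM in naive and 5.90 ± 2.16 in injured ganglia (SD, n = 4), which is 2.19-fold lower. The log2 difference was −1.09 (SE 0.24, adjusted p = 6.76e-04), and it stayed called when any single library was left out. In C57 it was 0.21, with a 95% interval from −0.29 to 0.70 (adjusted p = 0.537), and in DBA 0.02, from −0.47 to 0.51 (adjusted p = 0.956). The CAST response was below that of C57 by 1.30 (difference −1.30, SE 0.33, adjusted p = 0.0132) and below that of DBA by 1.11 (difference −1.11, SE 0.33, adjusted p = 0.0295).

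The difference from DBA was near the threshold. It missed the threshold when only the groups of the contrast were fitted (adjusted p = 0.0781), without the 3 libraries that stood apart (adjusted p = 0.0570), and without any single one of 9 libraries for Fabp7. These were CAST naive replicates 3 and 4 (adjusted p = 0.0590 and 0.0610), CAST crush replicates 1 and 2 (0.0686 and 0.0661), DBA naive replicates 1 and 2 (0.0502 and 0.0538) and DBA crush replicates 1, 2 and 4 (0.0569, 0.0551 and 0.0547). The difference of Fabp7 from C57 missed it only in the fit of the groups of the contrast (adjusted p = 0.0518), among the alternatives run.

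Glul rose in C57 more than in the other strains. Its FPKM in C57 was 12.8, 12.8, 12.7 and 11.6 in naive and 19.1, 17.3, 19.3 and 17.6 in crush libraries. In CAST it was 10.7, 10.4, 10.04 and 10.1 in naive and 12.7, 11.7, 10.5 and 10.1 in crush libraries. In DBA it was 9.61, 10.1, 9.69 and 9.51 in naive and 10.96, 10.6, 11.9 and 10.7 in crush libraries. Injured C57 libraries were above every other library, the CAST groups overlapped, and the DBA groups were apart by a narrow gap.

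The ratio of Glul means was 1.47 in C57 (log2 difference 0.55, SE 0.06, adjusted p = 2.60e-07) and 1.14 in DBA (0.18, SE 0.06, adjusted p = 0.0164). In CAST it was 1.09 (0.12, 95% interval from −0.01 to 0.24, adjusted p = 0.119). The DBA call was lost without DBA crush replicate 3, the highest of its group (0.14, adjusted p = 0.0682), and the CAST difference passed without CAST crush replicate 4, the lowest of its group (0.17, adjusted p = 0.0271). The response was smaller than that of C57 in CAST (difference −0.43, SE 0.08, adjusted p = 0.00142) and in DBA (−0.37, SE 0.08, adjusted p = 0.00772). CAST and DBA differed by −0.06, with a 95% interval from −0.24 to 0.11 (adjusted p = 0.729). Glul overlaps Teddm2 on the opposite strand, a gene whose mean was also higher after crush in each strain. Teddm2 had naive and crush means of 0.251 ± 0.006 and 0.382 ± 0.016 FPKM for C57, 0.266 ± 0.028 and 0.298 ± 0.066 for CAST, and 0.230 ± 0.028 and 0.256 ± 0.022 for DBA (SD, n = 4), ratios of 1.52, 1.12 and 1.11. Its span is longer than that of Glul, and which reads the genes share was not tested.

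Apoe passed the test for crush in no strain. Its FPKM in C57 was 91.5, 71.7, 69.1 and 83.9 in naive and 87.4, 87.0, 64.2 and 77.3 in crush libraries. In CAST it was 97.2, 93.9, 92.7 and 102.3 in naive and 98.7, 90.6, 96.2 and 95.5 in crush libraries. In DBA it was 107, 103.6, 98.6 and 114.5 in naive and 119.6, 120.0, 102.7 and 107.4 in crush libraries. Naive and crush libraries overlapped in every strain. The log2 differences had 95% intervals of −0.20 to 0.19 for C57, −0.21 to 0.17 for CAST, and −0.11 to 0.28 for DBA (adjusted p = 0.984, 0.897 and 0.483). Its responses did not pass the test between any pair of strains, with differences of −0.02 for CAST against C57 (95% interval −0.29 to 0.26), −0.10 for CAST against DBA (−0.38 to 0.17) and 0.09 for DBA against C57 (−0.19 to 0.36).

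**Figure D3:**
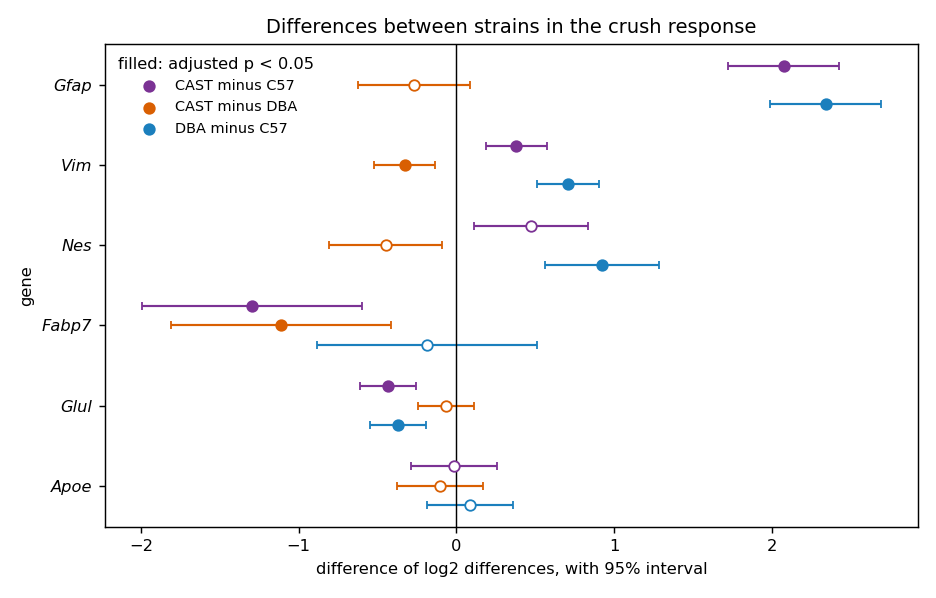
Differences between strains in the log2 crush response of each member, with their 95% intervals; filled points passed the test at an adjusted p under 0.05. Gfap lies at 2.07 and 2.34 for CAST and DBA against C57, Vim differs for every pair of strains, and Fabp7 is below 0 for CAST against both other strains.

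Across members, 4 of 6 differed in their response between CAST and C57, where 11.8% of all tested genes were called, 2 of 6 between CAST and DBA, against 14% of all genes, and 4 of 6 between DBA and C57, against 8.35%. These comparisons use the same libraries in pairs and are not independent of each other. Gfap and Vim responded more strongly in both CAST and DBA than in C57, and Glul less strongly in both. Fabp7 was the member whose response in CAST differed from both other strains in 1 direction. The reads of all strains were aligned to mm10, which derives from a C57 mouse. A contrast of crush with naive within a strain compares libraries of the same strain. The effect of the alignment on these contrasts, on their differences between strains and on levels set between strains was not tested.

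Before injury the strains already differed in several members. In naive ganglia 5 of 6 members were called between CAST and C57, against 44.8% of all tested genes, 3 between CAST and DBA, against 44.9%, and 4 between DBA and C57, against 21.8%. Naive C57 ganglia had the lowest Gfap, with a mean of 0.0486 ± 0.014 FPKM against 0.126 ± 0.034 in CAST and 0.159 ± 0.031 in DBA (SD, n = 4). The log2 difference from C57 was 0.60 in CAST (SE 0.12, adjusted p = 3.41e-04) and 0.80 in DBA (SE 0.12, adjusted p = 3.60e-05), and neither was called on log2(FPKM + 1). CAST and DBA overlapped in Gfap (−0.20, 95% interval from −0.45 to 0.05, adjusted p = 0.190).

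Naive Vim was in the order CAST, C57, DBA, with means of 16.7 ± 1.18, 22.2 ± 2.62 and 27.2 ± 0.594 FPKM (SD, n = 4). No neighbours in that order overlapped, and all 3 differences were called: −0.41 for CAST against C57 (adjusted p = 3.26e-05), −0.71 for CAST against DBA (adjusted p = 2.28e-08) and 0.30 for DBA against C57 (adjusted p = 0.00205). Naive Fabp7 was lowest in CAST, by 0.78 against C57 (difference −0.78, SE 0.24, adjusted p = 0.0109) and by 1.26 against DBA (difference −1.26, SE 0.24, adjusted p = 1.87e-04). The Fabp7 ranges of naive CAST and C57 overlapped through CAST replicate 4 at 20.1 FPKM. That difference missed the threshold without CAST naive replicate 1 (−0.54, adjusted p = 0.0546) and in the fit of the groups of the contrast (adjusted p = 0.0605). DBA lay 0.48 above C57 in Fabp7, with a 95% interval from −0.01 to 0.97 (adjusted p = 0.172), and the fit of those groups alone called it (adjusted p = 0.00122).

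Naive Glul was highest in C57, with a mean of 12.5 ± 0.581 FPKM against 10.3 ± 0.314 in CAST and 9.72 ± 0.245 in DBA (SD, n = 4). The differences from C57 were −0.27 in CAST (SE 0.06, adjusted p = 9.73e-04) and −0.35 in DBA (SE 0.06, adjusted p = 1.45e-04). Naive Apoe was lowest in C57, at 79.1 ± 10.5 FPKM against 96.5 ± 4.28 in CAST and 105.9 ± 6.68 in DBA. It was higher than C57 by 0.43 in DBA (SE 0.09, adjusted p = 0.00165) and by 0.30 in CAST (SE 0.09, adjusted p = 0.0129). The CAST call was lost with upper-quartile scaling (0.23, adjusted p = 0.0520) and without C57 naive replicate 3 (0.23, adjusted p = 0.0549).

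Naive Nes had means of 1.13 ± 0.186 FPKM in C57, 1.16 ± 0.213 in CAST and 1.45 ± 0.241 in DBA (SD, n = 4), and all 3 ranges overlapped. CAST was lower than DBA by 0.30 (difference −0.30, SE 0.12, adjusted p = 0.0498), at the edge of the threshold. DBA against C57 missed it (0.34, SE 0.12, adjusted p = 0.0529). Leaving out single naive libraries moved both Nes results across the threshold: the first lay between adjusted p = 0.00602 and 0.201 and the second between 0.00707 and 0.182.

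Deposited FPKM divides by the whole span of a gene, introns included, so it does not rank genes by transcript level. Divided by exon length instead, naive C57 ganglia had 114 ± 15.1 reads per exon kilobase and M reads for Apoe, 59.3 ± 2.45 for Fabp7, 41.7 ± 4.92 for Vim, 36.7 ± 1.71 for Glul, 1.65 ± 0.271 for Nes and 0.157 ± 0.045 for Gfap (SD, n = 4). In injured CAST ganglia Fabp7 stood at 16.8 ± 6.17 on this scale and Gfap at 5.45 ± 0.598, above Nes at 2.60 ± 0.123. In injured DBA ganglia Gfap reached 7.69 ± 1.22 against 4.47 ± 0.141 for Nes. On this scale Gfap was below Nes in all naive groups and above it after crush in CAST and DBA, but not in C57, where injured ganglia had 0.584 ± 0.097 for Gfap and 1.78 ± 0.124 for Nes. The order in injured CAST ganglia depends on the scale, since deposited FPKM was 1.69 ± 0.186 for Gfap and 1.78 ± 0.084 for Nes. Values per exon kilobase rest on the approximate read estimates for every member. This scale is a description, since reads in introns are not separated from reads in exons.

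The other satellite glia genes did not move in 1 direction. Of 15, 5 were higher and 2 lower after crush in C57; CAST had 6 and 2, and DBA 9 and 3, with medians of 0.10, 0.12 and 0.36 on the log2 scale against a median near 0 over all tested genes (−0.002, 0.010 and 0.008). With upper-quartile scaling the number lower in CAST was 4. The summed FPKM of the list was 95.4 to 102.4 in naive and 86.9 to 88.8 in injured C57 ganglia. It was 110.8 to 116.4 and 94.2 to 99.5 in CAST, and 111.8 to 116.4 and 110.1 to 114.7 in DBA. S100b weighs most in this sum, with a mean of 57.6 FPKM in naive C57 ganglia. Entpd2, an enzyme that degrades extracellular ATP, had the largest rise in each strain, at 0.70, 0.65 and 0.91 (SE 0.08 each, adjusted p = 2.04e-07, 4.09e-07 and 2.26e-09). On log2(FPKM + 0.1), S100b, a calcium-binding protein of glia, had the largest fall, at −0.53, −0.61 and −0.54 (SE 0.04 each, adjusted p = 4.08e-09, 3.02e-10 and 1.60e-09).

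Kcnj10, the inward rectifier channel Kir4.1 that takes up potassium, rose in DBA from 3.47 ± 0.121 to 4.50 ± 0.223 FPKM and was 2.32 ± 0.129 and 2.39 ± 0.109 in C57 and 3.27 ± 0.356 and 3.11 ± 0.389 in CAST (SD, n = 4). Sox2, a transcription factor of glia and progenitors, rose in DBA from 6.41 ± 0.402 to 9.70 ± 0.767 FPKM. Its DBA response exceeded that of C57 by 0.48 (adjusted p = 0.00632) and that of CAST by 0.49 (difference for CAST against DBA −0.49, adjusted p = 0.00322). The response of Kcnj10 in CAST was also below that of DBA (−0.44, adjusted p = 0.00709). Sox10 and P2rx7, which encode a glial transcription factor and an ATP-gated channel, rose in all 3 strains. Slc1a3, the glutamate transporter GLAST, passed the test in none, with differences of −0.03, 0.002 and −0.05. Kcnj3, a channel subunit gene, fell in all 3 strains (−0.23, −0.28 and −0.26). Its naive means were only 0.061, 0.077 and 0.043 FPKM, where the added 0.1 shrinks a change. By mean FPKM it fell 1.63-fold, 1.67-fold and 2.23-fold, more than S100b did (1.45-fold, 1.52-fold and 1.45-fold).

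**Figure D4:**
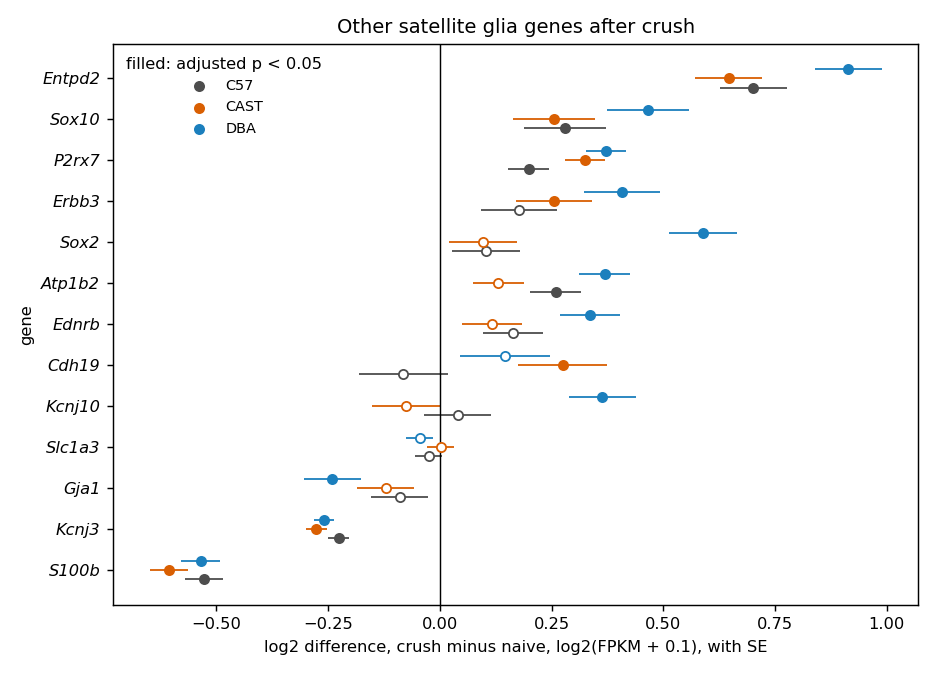
Log2 difference of crush against naive ganglia for 13 of the 15 other satellite glia genes in each strain, on log2(FPKM + 0.1), with its standard error; filled points passed the test at an adjusted p under 0.05. Entpd2 lies farthest to the right and S100b farthest to the left in every strain, and Sox2 and Kcnj10 stand apart to the right in DBA.

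Most reactive glia genes other than Gfap, Vim and Nes rose. Of 12, 7 were higher and 1 lower in C57. CAST had 8 and 1, and DBA 10 and 0, with medians of 0.43, 0.31 and 0.83. Of all tested genes 18.7%, 25.7% and 26.5% were higher in C57, CAST and DBA. On log2(FPKM + 0.1), Hspb1, a small heat shock protein, had the largest rise in C57 (0.91, adjusted p = 2.28e-07). The chemokine gene Cxcl10 had it in CAST (3.17, SE 0.41, adjusted p = 1.87e-06) and Timp1, an inhibitor of matrix metalloproteinases, in DBA (1.99, adjusted p = 1.47e-14). By ratio of means C3 rose more than Hspb1 in C57 (3.63 against 1.87) and more than Timp1 in DBA (8.91 against 4.62). Its naive means there were 0.041 and 0.056 FPKM. In CAST it rose less than Cxcl10 (5.27 against 15.6). Osmr, the oncostatin M receptor, fell in C57 (−0.17, adjusted p = 0.00199) and CAST (−0.24, adjusted p = 5.17e-05). Timp1 responded in the order C57, CAST, DBA, as Vim did, with ratios of 1.87, 3.40 and 4.62. Its response was larger in CAST than in C57 by 0.78 (adjusted p = 2.75e-05), and CAST was below DBA (−0.42, adjusted p = 0.00905). Between CAST and DBA 8 of the 12 responses were lower in CAST and 0 higher, where 6.61% of all tested genes were lower and 7.36% higher.

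Among 10 other intermediate filament genes and linkers, 2 were higher and 4 lower in C57; CAST had 2 and 4, and DBA 3 and 4, with medians of 0.02, −0.02 and −0.14. The list includes the filaments of neurons. Nefh, the heavy neurofilament subunit, fell most in each strain, by −0.74, −0.94 and −0.69 on the log2 scale (adjusted p = 1.44e-08, 2.65e-10 and 2.14e-08). Lmna, which encodes the nuclear lamins A and C, had the largest rise in C57 and CAST (0.56 and 0.64, adjusted p = 1.94e-07 and 2.06e-08), and Ina, the neuronal filament alpha-internexin, in DBA (0.81, adjusted p = 8.88e-13).

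Of 12 other fatty acid and retinoid binding protein genes, 7 passed the filter. In C57 1 was higher and 0 lower; CAST had 4 and 0, and DBA 5 and 1, with medians of −0.02, 0.38 and 0.65. Fabp5, the epidermal-type relative of Fabp7, rose in each strain. Its naive and crush means were 8.19 ± 1.42 and 12.2 ± 0.804 FPKM for C57, 2.79 ± 0.114 and 4.18 ± 0.312 for CAST, and 5.45 ± 0.496 and 11.1 ± 0.831 for DBA (SD, n = 4). It therefore rose in CAST, the strain in which Fabp7 fell. Crabp2, which carries retinoic acid, had the largest rise in CAST (0.80, SE 0.18, adjusted p = 0.00106), and Fabp3, the heart type, the largest fall in DBA (−0.38, adjusted p = 3.29e-04).

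Of 14 genes of glutamate and glutamine handling, the pathway that Glul serves, 13 passed the filter. In C57 3 were higher and 3 lower; CAST had 4 and 2, and DBA 4 and 4, with medians of 0.03, −0.02 and 0.04. With upper-quartile scaling the number higher in CAST was 2. On log2(FPKM + 0.1), Slc38a1, a glutamine transporter, had the largest rise in C57 and CAST (0.51 and 0.48, adjusted p = 7.72e-08 and 9.67e-08). The cystine and glutamate exchanger gene Slc7a11 had it in DBA (0.68, adjusted p = 7.56e-06). By ratio of means Slc1a2 of the same list, at 0.011 FPKM in naive DBA ganglia, rose more there than Slc7a11 (2.19 against 1.66). Gls2, a glutaminase, which runs the reaction opposite to that of glutamine synthetase, fell most in each strain, at −0.39, −0.60 and −0.45 (adjusted p = 8.88e-10, 7.09e-13 and 4.61e-11).

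Of 19 genes of apolipoproteins and lipid transport beside Apoe, 7 were higher and 3 lower in C57. CAST had 9 and 3, and DBA 13 and 3, with medians of 0.11, 0.09 and 0.27. Over all tested genes 39.4%, 47.2% and 50.5% were called in either direction in C57, CAST and DBA. Abca1, the pump that loads lipid onto apolipoprotein E, had the largest rise in C57 and DBA, from 0.710 ± 0.102 to 2.89 ± 0.297 FPKM and from 0.825 ± 0.030 to 3.41 ± 0.194 FPKM (SD, n = 4). In CAST it went from 1.11 ± 0.036 to 2.33 ± 0.286 FPKM, and its response there was smaller than in C57 (difference −0.89, adjusted p = 4.02e-05) and in DBA (−0.92, adjusted p = 1.93e-05). Trem2, a lipid receptor of macrophages, had the largest rise in CAST on log2(FPKM + 0.1) (1.54, SE 0.08, adjusted p = 1.18e-12). Its naive means were 0.025, 0.021 and 0.030 FPKM in C57, CAST and DBA. By ratio of means Trem2 rose more than Abca1 in all 3 strains (7.14, 12.0 and 10.3 against 4.07, 2.10 and 4.13). Abcg1, another lipid exporter, fell most in each strain (−0.49, −0.75 and −0.70, adjusted p = 8.35e-06, 1.75e-08 and 3.64e-08).

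Of 14 gliogenic and upstream factors, 5 were higher and 3 lower in C57; CAST had 4 and 5, and DBA 6 and 3, with medians of −0.004, −0.03 and 0.07. Without the 3 libraries that stood apart the number higher in C57 was 3. Sox9, a transcription factor of glial fate, had the largest rise in each strain. Its naive and crush means were 0.203 ± 0.020 and 1.26 ± 0.162 FPKM for C57, 0.187 ± 0.036 and 0.640 ± 0.086 for CAST, and 0.338 ± 0.054 and 1.26 ± 0.108 for DBA (SD, n = 4). Unlike Gfap, its response was larger in C57 than in CAST (CAST against C57 −0.79, adjusted p = 0.00106) and than in DBA (DBA against C57 −0.53, adjusted p = 0.0324). Hes5, a target of Notch signalling, fell most in C57 and CAST (−0.69 and −0.92, adjusted p = 0.00225 and 1.03e-04), and Pax6, a transcription factor of neural progenitors, in DBA (−0.10, adjusted p = 7.22e-05). Pax6 had means of only 0.028 FPKM in naive and 0.020 in injured DBA ganglia, where the added 0.1 shrinks a change, and fell 1.43-fold by mean FPKM.

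Among markers of other cell types, those of macrophages and many of fibroblasts were higher after crush. All 16 macrophage genes were higher in every strain, against 18.7%, 25.7% and 26.5% of all tested genes in C57, CAST and DBA. The summed level of the macrophage genes was 8.90 to 18.2 FPKM in naive and 45.8 to 79.4 FPKM in injured ganglia, and none was at 0. On log2(FPKM + 0.1), C1qc rose most in C57 and DBA (2.54 and 2.78, adjusted p = 6.85e-14 and 8.98e-15) and C1qa in CAST (3.45, adjusted p = 5.42e-16), both subunits of complement C1q. By ratio of means Ctss, at 0.058 FPKM in naive CAST ganglia, rose more there than C1qa (18.7 against 11.6). In C57 and DBA its ratio was below that of C1qc. The macrophage response was larger in CAST than in C57 for 10 of the 16 genes and smaller for 2. Of all tested genes 7.07% were called larger and 4.73% smaller in that comparison. Of 9 fibroblast genes, 5, 8 and 8 were higher in C57, CAST and DBA and 0 lower, with Lum the largest rise in C57 (0.73, adjusted p = 5.25e-04) and Col1a1 in CAST and DBA (1.35 and 1.54, adjusted p = 3.05e-06 and 5.03e-07). Their summed level was 11.5 to 23.2 FPKM in naive and 20.2 to 44.9 FPKM in injured ganglia. Without the 3 libraries that stood apart the fibroblast count in C57 was 3. The part of macrophages and fibroblasts in the Vim and Apoe values was not tested.

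Of 11 repair Schwann cell genes, 3 were higher and 3 lower in C57; CAST had 6 and 3, and DBA 8 and 0. Jun, the transcription factor of the repair state, which injured neurons also make, rose most in each strain on log2(FPKM + 0.1) (1.37, 1.51 and 1.998, adjusted p = 4.43e-11, 6.50e-12 and 7.13e-14). By ratio of means Gdnf, at 0.019 FPKM in naive CAST and 0.007 in naive DBA ganglia, rose more there than Jun. The ratios were 3.53 against 2.87 in CAST and 19.2 against 4.01 in DBA, but 1.08 against 2.60 in C57. Fgf5 fell most in C57 (−0.42, adjusted p = 9.99e-06) and Olig1 in CAST (−0.93, adjusted p = 1.42e-04). Of 9 myelinating Schwann cell genes, 1, 4 and 2 were higher in C57, CAST and DBA and 0, 0 and 1 lower. The repair list summed to 47.3 to 56.7 FPKM in naive and 72.6 to 98.0 FPKM in injured ganglia, and the myelinating list to 79.7 to 173.5 and 87.4 to 169.8 FPKM.

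Of 9 endothelium and pericyte genes, 0 were higher and 1 lower in C57; CAST had 5 and 0, and DBA 4 and 1. Their sum was 9.58 to 12.8 FPKM in naive and 9.85 to 14.5 FPKM in injured ganglia. All 10 cell cycle genes were higher in DBA, and 7 were higher and 0 lower in C57 and in CAST, at sums of at most 4.90 FPKM. The DBA response exceeded that of CAST for 6 of them, against 6.61% of all tested genes. Of 10 sensory neuron genes, 7, 8 and 8 were lower in C57, CAST and DBA and 2 higher in each, led by Scn10a, a sodium channel of nociceptors, and Tubb3, neuronal tubulin. Of 8 skeletal muscle genes, 1 was higher in CAST and 6 were lower in DBA, where naive replicate 3 held the muscle RNA, and 1 was lower in DBA without the 3 libraries that stood apart. Of 6 tested astrocyte and oligodendrocyte genes of the central nervous system, Aldh1l1, an astrocyte folate enzyme, rose in every strain (0.73, 0.61 and 0.98, adjusted p = 8.69e-12, 8.05e-11 and 4.48e-14), from group means of at most 0.093 FPKM. By ratio of means Aldh1l1 rose most in CAST, from 0.017 FPKM (2.82, 4.58 and 3.04 in C57, CAST and DBA). Aqp4, the water channel of astrocytes, fell in C57 and DBA (−0.51 and −0.74, adjusted p = 0.00241 and 4.14e-05). The part of any of these cell types in the results on the members was not tested.

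The genes whose pattern was most like that of a member were sought by Pearson r over the 6 group means, among 5875 genes with a mean of at least 1 FPKM in a group. For Gfap they were Kif20a (r = 0.998), a kinesin of dividing cells, Col6a1 (r = 0.997), a collagen, and Cd81 (r = 0.991), a tetraspanin. Kif20a had a mean of 0.488 FPKM in naive and 0.609 in injured C57 ganglia, 0.541 and 1.33 in CAST, and 0.561 and 1.48 in DBA. For Vim they were Hnrnpl (r = 0.995), Npepl1 (r = 0.993) and Rps12-ps3 (r = 0.992), and for Nes Spnb3 (r = 0.985), Ppp1r15b (r = 0.985) and Ngdn (r = 0.983). For Fabp7 they were Sltm (r = 0.978), Ppp1cb (r = 0.976) and Maged2 (r = 0.965), which differed far less between groups than Fabp7 did. Sltm ranged from 0.957 to 1.12 FPKM over the group means.

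For Glul the closest was A930039A15Rik (r = 0.9995), with naive and crush means of 21.1 and 30.9 FPKM for C57, 17.1 and 18.6 for CAST, and 16.1 and 18.3 for DBA, followed by Erlin2 (r = 0.965) and Rab7 (r = 0.958). The identifier of A930039A15Rik was not among those matched to the annotation, so its position relative to Glul is not given here. Whether it shares reads with Glul was not tested, and this r cannot be read as likeness of separate transcripts. For Apoe they were Manbal (r = 0.995), Rnf215 (r = 0.986) and Scd3 (r = 0.984), the last a fatty acid desaturase gene. With 6 points that share strain and treatment, such likeness is a description and nothing more.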

How the data were processed

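RNA sequencing measured 24 libraries of dorsal root ganglia. The labels' protocols name Trizol extraction of total RNA and standard Illumina library preparation, and the submitters' processing notes name STAR 2.3.0 and mm10. How reads were counted (tool, annotation, strand, reads with several positions) is not given in the sources used here. FPKM values of 38215 genes were deposited by the authors, and in 24 of 24 libraries the separate file equalled the series table.

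Of the gene IDs, 36345 (95.1%) were found in GENCODE M21. FPKM times the genomic span of the gene gave whole multiples of a unit shared within a library, so the kilobase term was read as the span with introns: among values equal to 0.5 to 100 reads, 67.9% fell within 0.05 of a whole number, where chance gives 10%. This gave library totals of 51.4 to 145.4 M and estimated reads per gene. Of these reads, 62.9% to 64.8% lay in genes. The filter asked for 10 or more estimated reads in 4 or more libraries (0.1 FPKM for IDs with no span), which left 27086 genes and removed 11129.

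The values log2(FPKM + 0.1) of all 24 libraries were fitted in 1 model of 6 group means with limma 3.58.1 (statmod 1.5.0, R 4.3.3), with a robust empirical Bayes variance that follows the mean. No further scaling was added. Contrasts set crush against naive within a strain, these responses between strains, and naive ganglia between strains. P-values are two-sided and adjusted by Benjamini-Hochberg over all genes kept within a contrast, and a gene was called under 0.05. They measure the spread between libraries labelled as biological quadruplicates. Fold ratios are of mean deposited FPKM. The script was tested on simulated data.

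The 6 members and the 16 other lists (185 genes) were chosen with earlier results of these data known. Named beside the members are other satellite glia genes (some single-gene results of that list are not reported here, though its counts cover all 15), the called gene with the largest rise and that with the largest fall of each list in each crush contrast, and the 3 genes most like each member. Acta1, C3, Ctss, Gdnf, Slc1a2 and the genes that overlap a member were named beyond it, after their values were seen. Alternatives were the pseudocounts 0.01 and 1, no filter or a filter on the mean FPKM, log2 CPM and voom from estimated reads, upper-quartile scaling, only the groups of a contrast, the replicate number as a block, each library left out in turn, and, chosen after seeing the data, leaving out the 3 libraries that stood apart. Promoter sequences are from RefSeq.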

Additional observations from a re-analysis of the deposited data

Results flagged for a closer look

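Within groups of 4 libraries, 3 of 36 member and group combinations held a library far from the others, where chance gives about 1 in 20. For Gfap, DBA crush replicate 1 was highest at 2.96 FPKM, with the next library at 2.23. For Fabp7, DBA crush replicate 3 was lowest at 23.3 FPKM, with the next at 31.4. For Glul, C57 naive replicate 4 was lowest at 11.6 FPKM, with the next at 12.7.

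The crush response differed between strains in 10 of 18 tests over the members, which share libraries and are not independent. Over all tested genes 11.8% were called for CAST against C57, 14% for CAST against DBA and 8.35% for DBA against C57. For CAST against C57 the differences of the log2 responses were 2.07 for Gfap, 0.38 for Vim, −1.30 for Fabp7 and −0.43 for Glul. For CAST against DBA they were −0.33 for Vim and −1.11 for Fabp7. For DBA against C57 they were 2.34 for Gfap, 0.71 for Vim, 0.92 for Nes and −0.37 for Glul.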

How the results depend on the processing

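Of 324 repeats of the member crush differences under alternative settings, 322 kept their direction and side of the threshold, as did 449 of 468 for the differences between strains and 299 of 324 for naive ganglia, and no result changed sign with a call. Leaving out 1 library in turn gave a Glul difference of 0.059 to 0.17 in CAST and of 0.14 to 0.20 in DBA. The number of members called for CAST against DBA in the response was 2, but 4 with log2(FPKM + 1), 1 with only the groups of the contrast and 1 to 3 with 1 library left out. It was 1 without CAST crush replicate 1 or 2, CAST naive replicate 3 or 4, DBA crush replicate 1, 2 or 4, or DBA naive replicate 1 or 2, when Fabp7 was lost. Upper-quartile scaling moved the share of higher calls among all genes from 54.8% to 44.3% for naive CAST against C57 and from 59.9% to 50.6% for the response of CAST against C57. Of the counts in other lists, 1619 of 1728 repeats stayed within 1.5 times, and 63 of the 109 that moved left out 1 library. With only the groups of the contrast, C57 had 3 gliogenic factors and 1 fibroblast gene higher and 1 glutamate gene lower, CAST had 1 myelinating gene higher, and DBA had 2 glutamate genes and 0 muscle genes lower. With a mean of at least 0.1 FPKM in a group as the filter, which tests fewer genes, 4 cell cycle genes were higher in C57 and in CAST, 3 and 5 repair Schwann cell genes in CAST and DBA, and 1 lipid transport gene was lower in DBA. Under that filter 1, 2 and 0 gliogenic factors were lower in C57, CAST and DBA. The number of other satellite glia genes lower was then 1 in C57 and 1 in CAST. Without the 3 libraries that stood apart, C57 had 0 myelinating genes higher and 1 endothelium gene higher with 2 lower. All 186 repeats of the counts over all genes stayed within 1.5 times. Same-numbered naive and crush libraries did not deviate together (r from −0.29 to 0.20), so the numbers were not taken to pair them. With the replicate number as a block the Nes difference of naive CAST and DBA was −0.30 (adjusted p = 0.0685), and the other member calls kept their side, while the number of lipid transport genes lower in DBA was 1. Depth limits Gfap in naive C57 ganglia most.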
